A study of Mus musculus with 27 samples.

Results

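The genes described are the Sult1 sulfotransferases Sult1d1, Sult1a1 and Sult1e1, measured in mouse liver. They were chosen by name with earlier results of these same arrays known, so the levels and differences between groups given for them are a description and carry no test. Of 12488 probe sets in the table, the array annotation maps 3 to these genes, 1 to Sult1d1 and 2 to Sult1a1. It maps 0 to Sult1e1, the estrogen sulfotransferase gene, which was not analysed here. The arrays come from 27 livers, 1 mouse each, in groups of 9 named Dex, Veh and Con. The labels do not spell out these names and give no strain, sex, age, dose or time, and they name no allele or transgene. Each mouse is called by its group and number as in its title.

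Cytosolic sulfotransferases of the SULT1 family move a sulfonate group from the donor 3'-phosphoadenosine-5'-phosphosulfate (PAPS) onto phenols and related small molecules, which makes most of them more soluble and easier to excrete. In liver this is one of the main conjugation routes for hormones, neurotransmitters and drugs. SULT1A1 acts on simple phenols and many xenobiotics, mouse SULT1D1 acts on catecholamines such as dopamine, and SULT1E1 acts on estrogens. In the RefSeq annotation of GRCm38.p6, Sult1d1 lies on chromosome 5 between its neighbours Sult1b1 and Sult1e1, and Sult1a1 lies on chromosome 7.

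The 250 bases before the annotated start of each measured gene are shown because these windows hold the sequence nearest to the transcripts whose levels are described. Both are from RefSeq, build GRCm38.p6, and read 5' to 3' on the gene's own strand, which is the minus strand for both. The Sult1d1 window is chr5:87569007-87569256 and the Sult1a1 window is chr7:126676419-126676668. Capitals mark matches, on either strand, to the 6-letter glucocorticoid receptor half-site TGTTCT or the nuclear receptor half-site AGGTCA.
Sult1d1: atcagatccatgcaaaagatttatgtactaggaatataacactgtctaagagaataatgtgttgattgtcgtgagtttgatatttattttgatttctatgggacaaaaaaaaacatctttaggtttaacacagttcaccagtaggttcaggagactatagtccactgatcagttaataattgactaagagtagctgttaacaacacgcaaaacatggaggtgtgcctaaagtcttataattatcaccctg
Sult1a1: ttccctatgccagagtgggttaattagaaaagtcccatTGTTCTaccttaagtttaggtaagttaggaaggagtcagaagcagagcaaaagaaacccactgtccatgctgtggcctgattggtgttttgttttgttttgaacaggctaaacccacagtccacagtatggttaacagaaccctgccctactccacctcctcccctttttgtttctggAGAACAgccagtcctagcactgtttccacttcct
In the Sult1a1 window TGTTCT was found at 2 places, at positions -212 to -207 on the gene's strand and -34 to -29 on the other strand, counted from the start. The Sult1d1 window held 0 matches to TGTTCT, and neither window held AGGTCA. Among 32851 RefSeq promoter windows of the same length, 16.1% held TGTTCT and 14% held AGGTCA on either strand. These matches describe letters only and say nothing of whether a factor binds there.

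All values are linear intensities as the authors scaled them. The log2 values rest on a floor of 2.6, below which intensities were set to the floor. For a probe set to be tested, at least 9 of the 27 livers had to show it above their array's median, and 6784 met this. Array medians lay between 17.6 and 33.3. The hepatocyte markers Alb, Apoa1, Ttr, Cps1, Ass1, Fgb and Tdo2 were above the array median in all 27 livers, while 5 kidney and 3 bile duct markers on the array had no tested probe set (highest summed intensity 84.8 and 42.2). Single markers of other cell types were above the array median in all 27 livers, among them Cela1 of exocrine pancreas (127.2 to 539.4), Lep of adipocytes (97.4 to 398.5) and Ms4a1 of B cells (24.9 to 112.1). Other measured markers of these lists were so in fewer livers: Cela2a in 25, Adipoq in 3, Retn in 0, Cd79a in 23, Cd3e in 3 and Cd3d in 1. The red cell marker Hba-a1 was above the array median in all 27 livers (2143.3 to 9787). With Alas2 it summed to 2649 to 10070.1 in Dex, 2762.5 to 7089.3 in Veh and 2753 to 5619.2 in Con. Of 8 Kupffer cell and macrophage markers 5 were so in all livers, and their list summed to 520.3 to 1560.9 in Dex, 729.5 to 2885.7 in Veh and 817 to 1778.9 in Con. The part of these cells in the results was not tested. Beta-actin has control probe sets near both ends of its transcript, and the log2 ratio of its 3' over its 5' signal (larger in more degraded RNA) was 0.886 ± 0.169 in Dex, 1.27 ± 0.318 in Veh and 0.947 ± 0.243 in Con (SD, n = 9 each). Nothing in the labels says that the mice of a group were treated, killed or hybridised at different times.

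Sult1d1 was higher in Dex livers than in Veh or Con livers, by several-fold on average and very unevenly from mouse to mouse. Its intensity ran from 53.6 to 577.7 in Dex livers (median 263.7), from 54.1 to 131.8 in Veh livers (median 66.6) and from 30.7 to 77.3 in Con livers (median 55.2). In Dex 7 of 9 mice lay above the highest Veh mouse and 8 of 9 above the highest Con mouse. The groups still overlapped, because Dex 7, at 53.6, was below every Veh mouse. All 27 values were above the median of their array, by little in the lowest livers (30.7 in Con 9, against an array median of 28).

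The mean log2 intensity of Sult1d1 was 7.98 ± 1.17 in Dex, 6.26 ± 0.503 in Veh and 5.65 ± 0.451 in Con (SD, n = 9 each). Dex exceeded Veh by 1.72 ± 0.34 on the log2 scale (SE of the fit), a 3.3-fold ratio of geometric means that ranked 9 among the 6784 tested probe sets by size of rise. Dex exceeded Con by 2.33 ± 0.34, or 5.02-fold, which ranked 11. Veh exceeded Con by 0.60 ± 0.34, or 1.52-fold, with 8 of 9 Veh mice above the Con median and 3 of 9 above the highest Con mouse. The fit shares its estimate of the spread across all groups, so the wide Dex spread enters each SE. In fits of only the 2 groups compared, the SE was 0.37 for Dex and Veh, 0.37 for Dex and Con and 0.22 for Veh and Con. Both comparisons with Con share the same 9 Con livers, and the comparisons of Dex with Veh and of Veh with Con share the Veh livers. In a bulk sample, fewer cells of a type and less RNA per cell cannot be told apart, and this holds for every level given here.

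**Figure D1:**
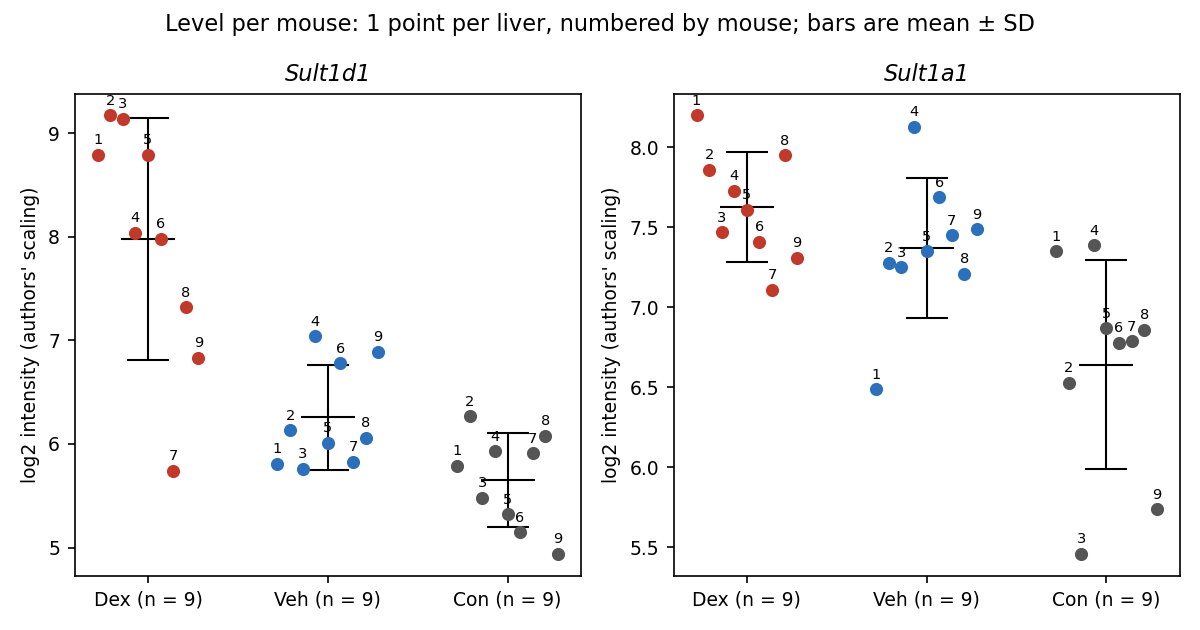
Log2 intensity of Sult1d1 and Sult1a1 (main probe set of each) in every liver of the Dex, Veh and Con groups, each point numbered by its mouse, with mean ± SD bars (n = 9 per group). Sult1d1 in Dex spans 53.6 to 577.7 on the linear scale and 7 of 9 Dex mice lie above all Veh mice, while the Sult1a1 values of Dex and Veh overlap and those of Con reach lower.

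The Dex mice differed widely among themselves in Sult1d1. Dex 1, Dex 2 and Dex 3 had 441.4, 577.7 and 565.8, Dex 4, Dex 5 and Dex 6 had 263.7, 443.7 and 253.3, and Dex 7, Dex 8 and Dex 9 had 53.6, 159.4 and 113.7. The 6 mice numbered 1 to 6 were thus all above the 3 numbered 7 to 9. The labels do not say what the numbers stand for.

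Set against mice of the same numbers, the Sult1d1 difference between Dex and Veh was not even (3 mice per group each). Among mice 1 to 3 the mean log2 intensity was 9.03 in Dex and 5.90 in Veh, a difference of 3.13, and the groups did not overlap. Among mice 4 to 6 the means were 8.27 in Dex and 6.61 in Veh, a difference of 1.66, again without overlap. Among mice 7 to 9 they were 6.63 in Dex and 6.26 in Veh, a difference of 0.37, and the groups overlapped. The share of all 6784 tested probe sets that were apart in such sets of 3 mice was not counted.
The size of the Sult1d1 difference therefore depended on which mice were compared. Without Dex 1, Dex 2 and Dex 3 together, a setting chosen after seeing the data, Dex exceeded Veh by 1.20 ± 0.33 and Con by 1.80 ± 0.33. The mouse numbers are labels and not known batches, so the part of a batch in this pattern was not tested. The beta-actin ratio also differed between these groups, as given above, and adding it to the fit made the Sult1d1 difference between Dex and Veh 1.24 ± 0.38 and that between Veh and Con 1.01 ± 0.36.
Between Veh and Con the Sult1d1 difference was 0.05 among mice 1 to 3, 1.14 among mice 4 to 6 and 0.62 among mice 7 to 9. The groups were apart among mice 4 to 6, and the share of all probe sets apart was not counted here either.

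**Figure D2:**
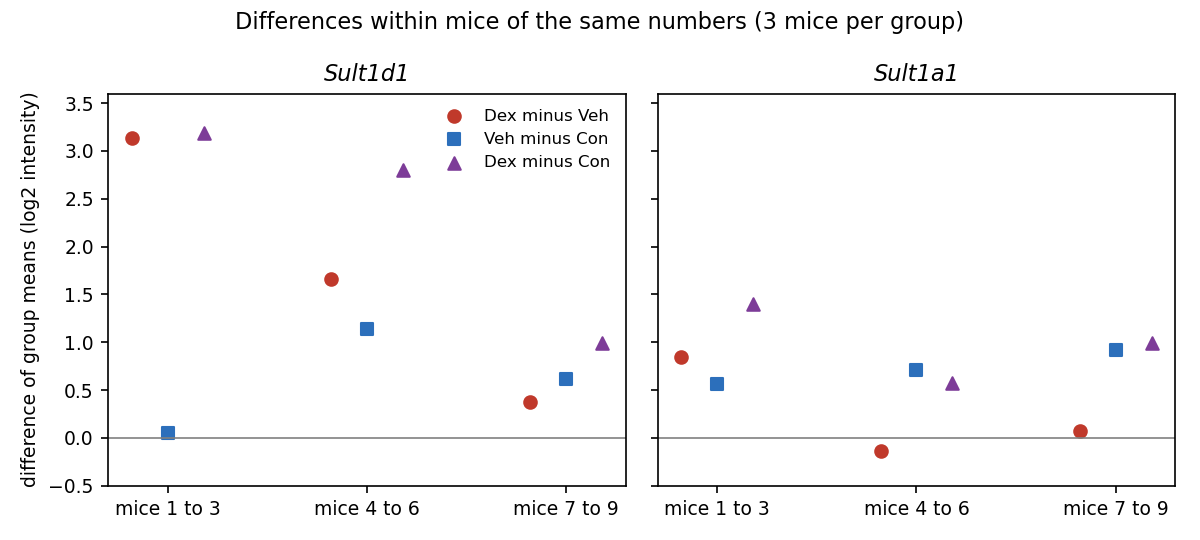
Difference of mean log2 intensity for Dex minus Veh, Veh minus Con and Dex minus Con among mice numbered 1 to 3, 4 to 6 and 7 to 9 (3 mice per group), for Sult1d1 and Sult1a1. For Sult1d1 the difference between Dex and Veh is 3.13, 1.66 and 0.37 in these sets of mice, and for Sult1a1 it is 0.84, -0.14 and 0.07.

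Sult1a1 was higher in both Dex and Veh livers than in Con livers, with little between Dex and Veh. On its main probe set the intensity ran from 138.6 to 294.4 in Dex (median 194.8), from 90.1 to 279.3 in Veh (median 162.7) and from 44 to 167.4 in Con (median 110.3). In Dex 9 of 9 mice lay above the Con median and 7 of 9 above the highest Con mouse. In Veh 8 of 9 lay above the Con median and 4 of 9 above the highest Con mouse. The Dex and Veh ranges overlapped over most of their length, with 1 of 9 Dex mice above the highest Veh mouse.

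The mean log2 intensity of Sult1a1 was 7.63 ± 0.341 in Dex, 7.37 ± 0.435 in Veh and 6.64 ± 0.654 in Con (SD, n = 9 each). Dex exceeded Con by 0.99 ± 0.22 (SE), or 1.98-fold, which ranked 70 of 6784 by size of rise, and Veh exceeded Con by 0.73 ± 0.22, or 1.66-fold, which ranked 123. Dex exceeded Veh by 0.26 ± 0.22, or 1.20-fold, close to the SE of the fit. Adding the beta-actin ratio to the fit made this last difference 0.03 ± 0.26. Among mice 4 to 6 its sign was turned, with means of 7.58 in Dex and 7.72 in Veh. Against Con every set of 3 Dex mice lay above the Con mice of the same numbers (differences of 1.40, 0.57 and 0.99). With all 9 mice per group, the Dex and Con values overlapped. The share of all probe sets apart in such sets of 3 mice was not counted. The lowest Con mice were Con 3 at 44 and Con 9 at 53.4, and the other 7 Con mice lay between 92.7 and 167.4.

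The second Sult1a1 probe set stayed at or under the array median throughout. Its intensity ran from 0.3 to 16.4 in Dex, from 0.2 to 12 in Veh and from 0.4 to 8.9 in Con, and 0 of 27 values exceeded the median of the array. At or under the floor were 4 Dex, 5 Veh and 5 Con values. It did not enter the tests, and no fold is given for it. The level of Sult1a1 thus rests on 1 probe set, as does that of Sult1d1.

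Both genes were then compared from mouse to mouse inside each group, where the differences between groups do not enter. Pearson's r between Sult1d1 and Sult1a1 was 0.583 in Dex (exact permutation p = 0.101, adjusted p = 0.151 over 3 groups), 0.744 in Veh (exact p = 0.00591, adjusted p = 0.0177) and 0.452 in Con (exact p = 0.228, adjusted p = 0.228), two-sided, n = 9 each. Spearman's rho was 0.50 in Dex, 0.75 in Veh and 0.30 in Con (exact adjusted p = 0.266, 0.0765 and 0.437). Without the 2 mice whose Sult1d1 lay farthest from the group median, r was -0.0565 in Dex, 0.594 in Veh and 0.28 in Con (exact adjusted p = 0.906, 0.586 and 0.838, n = 7 each). In Veh the mice left out were Veh 4 and Veh 9, and without them the relation no longer passed the threshold at n = 7, though r stayed positive. In quantile-normalized values of all 9 Veh mice r was 0.707 (exact adjusted p = 0.099). No other gene pair was compared inside single groups, so whether such an r is particular to these genes was not tested.

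**Figure D3:**
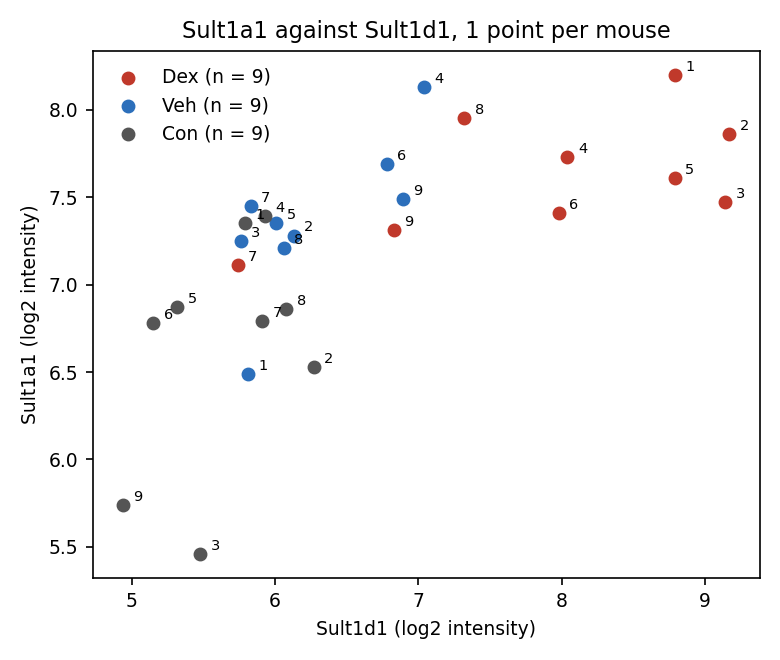
Sult1a1 against Sult1d1 log2 intensity, 1 point per mouse numbered within its group (n = 9 each for Dex, Veh and Con). Con mice lie mostly at low values of both genes, Veh 4 is highest for both among Veh mice, and Dex mice spread along the Sult1d1 axis.

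Over the 27 mice, the gene whose log2 intensity ran most like that of Sult1d1 among 5199 other genes was Cyp2b10, a cytochrome P450 that is the classical target of the receptor CAR, with r = 0.863, or 0.686 after group means were removed. Cyp2b10 averaged 9.32 in Dex, 6.69 in Veh and 5.33 in Con on the log2 scale. Next came Cps1, the first enzyme of the urea cycle (0.835, and 0.674 without group means), the nucleoside transporter gene Slc29a1 (0.816 and 0.629), the amylase gene Amy1 (0.814 and 0.577) and Mcfd2, which helps export clotting factors from the endoplasmic reticulum (0.79 and 0.599). All 5 had their highest mean in Dex and their lowest in Con, an order that the choice favours, since r over all 27 mice includes the group differences. These r describe 27 livers that share arrays and groups, and carry no test.

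The genes nearest to Sult1a1 in the same measure were less alike. They were the purine nucleoside phosphorylase gene Pnp (r = 0.701, and 0.463 after group means were removed), the carbonic anhydrase gene Car14 (0.688 and 0.523), the succinate dehydrogenase subunit gene Sdhb (0.685 and 0.35), the sterol isomerase gene Ebp (0.68 and 0.542) and the cytochrome P450 gene Cyp2c39 (0.673 and 0.414). None of these 5 was among the 5 nearest to Sult1d1. For Cyp2c39 the mean log2 intensity was 10.77 in Dex, 10.79 in Veh and 9.27 in Con, close together in Dex and Veh as for Sult1a1. Car14 averaged 8.76, 8.07 and 7.79 in the same order of groups, with Veh nearer to Con. Pnp averaged 10.31, 10.19 and 9.53, Sdhb 11.04, 10.97 and 10.38, and Ebp 8.80, 8.94 and 8.40. The choice by r favours genes whose group means run like those of Sult1a1.

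The array held 7 other Sult genes, of which 3 were tested and none passed in any comparison (limma). Of all tested probe sets 0.265% passed between Dex and Veh, 3.86% between Veh and Con and 16.4% between Dex and Con. At these shares, no call among 3 genes says little about the family. Sult1b1, the thyroid hormone sulfotransferase gene next to Sult1d1 on chromosome 5, ran from 47.1 to 173.5 in Dex (median 83.1), from 33 to 141.5 in Veh (median 74.3) and from 48 to 108.3 in Con (median 64.6). Dex exceeded Veh by 0.03 ± 0.25 in Sult1b1 (limma adjusted p = 0.973), Dex exceeded Con by 0.20 ± 0.25 (limma adjusted p = 0.607), and Veh exceeded Con by 0.17 ± 0.25 (limma adjusted p = 0.686). Adding the beta-actin ratio, its difference between Dex and Veh was -0.34 ± 0.27 (limma adjusted p = 0.713). The Con range of Sult1b1 lay inside both the Dex and the Veh range, and the Dex and Veh ranges overlapped over most of their length. Whether the differences of Sult1d1 and Sult1b1 differ from each other was not tested.

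Sult2a2, which sulfates bile acids and hydroxysteroids, and Sult3a1, an amine sulfotransferase gene, were low in most livers and high in a few. Both belong to genes known for higher expression in female than in male mouse liver. Sult2a2 was above the median of its array in 5 of 27 mice, with 4159.6 in Dex 1, 722.7 in Dex 8, 4113.7 in Veh 2, 321.6 in Veh 4 and 52.9 in Veh 7. Sult3a1 was above it in the same 5 mice, with 22.4 in Dex 1, 1105.3 in Dex 8, 119.8 in Veh 2, 625.4 in Veh 4 and 55.1 in Veh 7. In Con the highest values were 15.3 for Sult2a2 and 3.6 for Sult3a1. Too few arrays passed for either gene to be tested. In these 5 mice Sult1d1 stood at 441.4, 159.4, 70, 131.8 and 57, in the same order. Within their groups, Dex 8 and Veh 7 lay under the median for Sult1d1 and the others above it. Sult1a1 stood at 294.4, 246.5, 155.9, 279.3 and 174.3. Dex 1 and Dex 8 had the highest Sult1a1 of the Dex mice and Veh 4 that of the Veh mice, while Veh 2 lay under the Veh median. A relation of these genes to Sult1d1 or Sult1a1 was not tested.

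Sult4a1, best known from brain, and Sult5a1 passed the filter on low values. On the log2 scale Sult4a1 averaged 4.59 in Dex, 4.66 in Veh and 5.14 in Con, and Sult5a1 averaged 5.03 in Dex, 5.34 in Veh and 5.75 in Con. Their limma adjusted p lay at 0.178 or above in every comparison. Sult2b1, the cholesterol sulfotransferase gene, ran from 4.6 to 39.4 in Dex, from 7.9 to 24.5 in Veh and from 6.2 to 35.6 in Con. It exceeded the array median in 4 of 27 livers, and Sult1c1 did so in 0 of 27, so neither was tested.

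**Figure D4:**
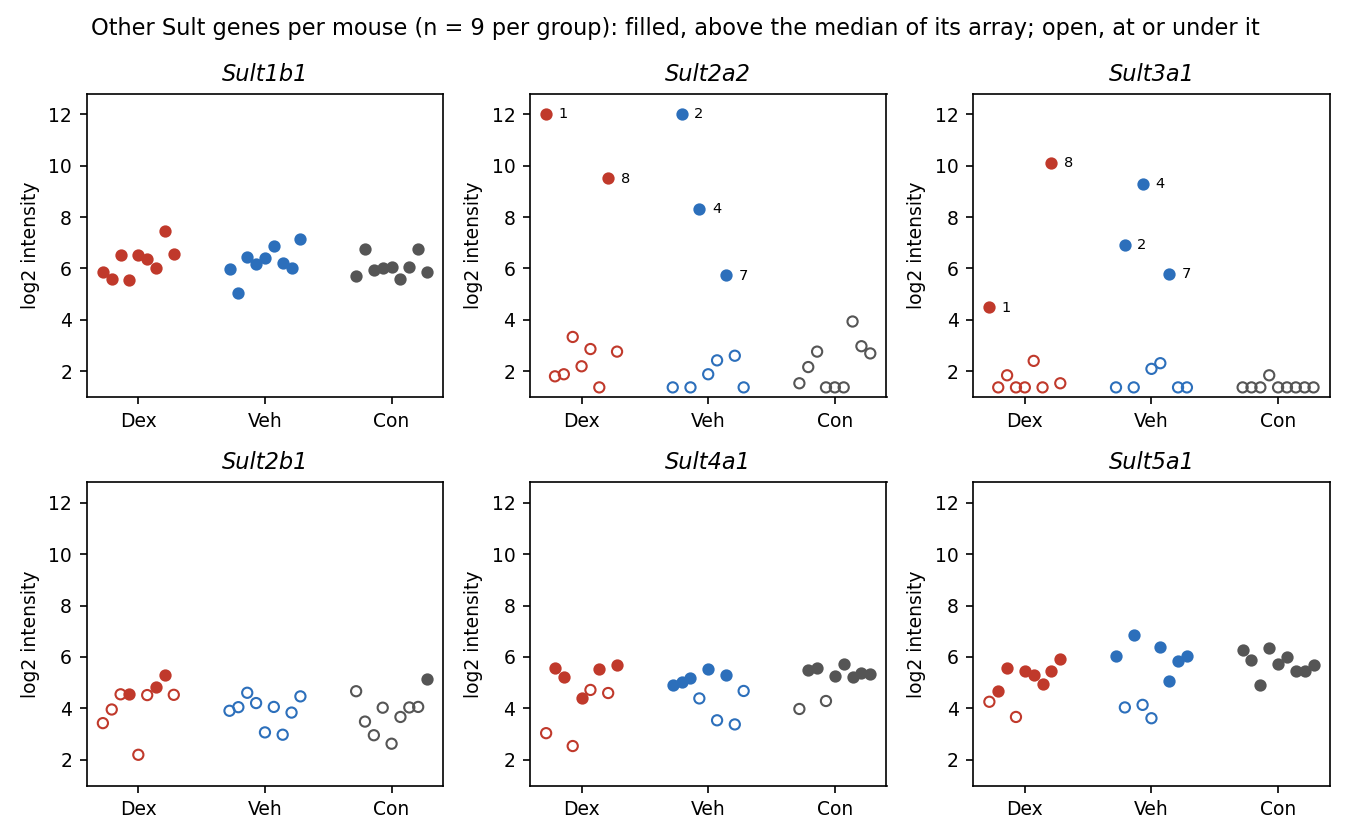
Log2 intensity of 6 other Sult genes in each liver of Dex, Veh and Con (n = 9 each), with filled points above the median of their array and open points at or under it. Sult1b1 values overlap across the groups, while Sult2a2 and Sult3a1 are near the floor except in Dex 1, Dex 8, Veh 2, Veh 4 and Veh 7.

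The supply of PAPS and the rest of sulfur handling were followed through a list of 45 other sulfation genes, of which 22 were on the array and 17 were tested. Between Dex and Veh 0 of 17 passed (limma, adjusted over all 6784 probe sets; 3 had an unadjusted p under 0.05), where 0.265% of all tested probe sets passed. The median difference was 0.03 for the list and -0.03 for all probe sets. Papss1 and Papss2, which make PAPS from ATP and sulfate, did not pass in any comparison. On the log2 scale Papss2 averaged 6.15 in Dex, 6.88 in Veh and 6.40 in Con, a difference of -0.73 ± 0.32 between Dex and Veh (limma adjusted p = 0.257) with 2 of 9 Dex mice above the Veh median. Papss1 had 6.48 in Dex, 6.44 in Veh and 6.81 in Con.

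Between Veh and Con 0 of 17 sulfation genes passed as well (5 with an unadjusted p under 0.05), where 3.86% of all tested probe sets passed. The list's median was -0.22, beside -0.19 over all probe sets. Arsa, the lysosomal arylsulfatase A, came nearest with a difference of -1.08 ± 0.33 (limma adjusted p = 0.0564), and Tst, the thiosulfate sulfurtransferase rhodanese, had 0.52 ± 0.18 (limma adjusted p = 0.083). The count was 2 when Veh 3 was left out and 1 without any 1 of Con 5, Veh 9, Dex 1, Dex 2, Dex 5 and Dex 9.

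Between Dex and Con 2 of 17 sulfation genes rose and 2 fell, where 16.4% of all tested probe sets passed (3.26% higher and 13.2% lower). Those that rose were Cdo1, the cysteine dioxygenase that starts the oxidation of cysteine sulfur (0.54 ± 0.14, limma adjusted p = 0.0105, 9 of 9 Dex mice above the Con median), and Tst (0.55 ± 0.18, limma adjusted p = 0.0334, 8 of 9). Those that fell were Arsa (-1.25 ± 0.33, limma adjusted p = 0.0107, 0 of 9 above) and Slc35b2, the carrier of PAPS into the Golgi (-0.47 ± 0.16, limma adjusted p = 0.0391, 2 of 9 above). The list's median was -0.32, beside -0.20 over all probe sets. In quantile-normalized values Cdo1, Tst and Slc35b2 no longer passed (limma adjusted p = 0.203, 0.0963 and 0.185), and without Dex 1, Dex 2 and Dex 3 none of the 4 did (limma adjusted p from 0.0941 to 0.249). The count was 2 without any 1 of Dex 1, Dex 4, Con 1, Con 3, Con 7 and Con 9. Of the 27 fits that left out 1 array, Slc35b2 was called in 16 (limma adjusted p up to 0.0914) and Tst in 21 (limma adjusted p up to 0.0786). Cdo1 and Arsa were called in all 27.

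**Figure D5:**
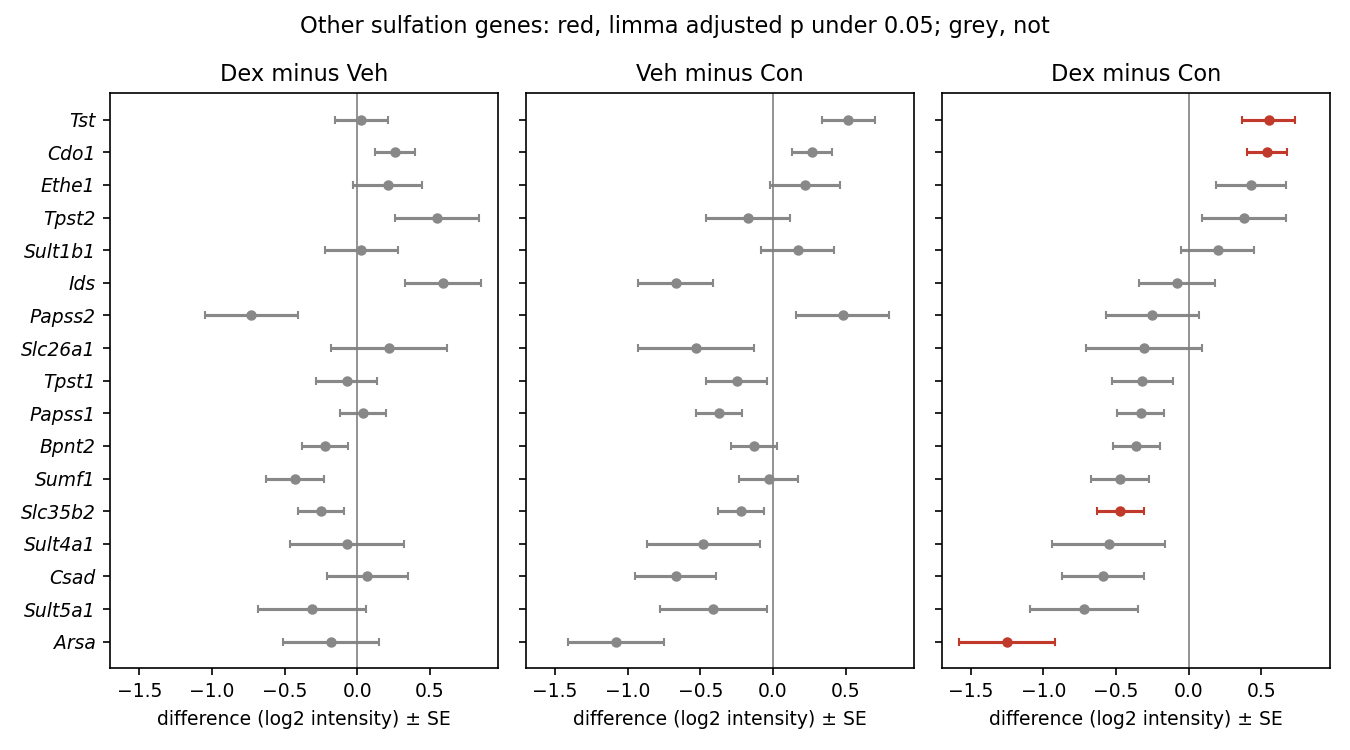
Difference in log2 intensity ± SE for 17 other sulfation genes between Dex and Veh, Veh and Con, and Dex and Con, with genes at limma adjusted p under 0.05 in red. Red points appear between Dex and Con only, for Tst and Cdo1 (higher in Dex) and for Slc35b2 and Arsa (lower in Dex); 3 of these 4 are lost with quantile normalization.

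Enzymes of other conjugation and drug clearance routes were taken from a list of 38 genes, of which 18 were on the array and 15 were tested. Between Dex and Veh, and between Veh and Con, 0 of 15 passed (limma; 5 and 4 with an unadjusted p under 0.05), where 0.265% and 3.86% of all tested probe sets passed. Leaving out Dex 6 brought 2 past the threshold between Dex and Veh, and leaving out Dex 8 brought 1. Between Dex and Con 1 of 15 rose and 4 fell, where 3.26% of all tested probe sets were called higher and 13.2% lower. Gnmt, the glycine N-methyltransferase, rose by 0.95 ± 0.14 (limma adjusted p = 0.000198, 9 of 9 Dex mice above the Con median). The carboxylesterase gene Ces1g (-1.57 ± 0.34, limma adjusted p = 0.00332), the aldehyde oxidase gene Aox1 (-0.98 ± 0.28, 0.018), Ugp2, which makes UDP-glucose (-0.83 ± 0.26, 0.0289), and the glucuronosyltransferase gene Ugt2b34 (-0.73 ± 0.15, 0.00206) fell, with at most 1 of 9 Dex mice above the Con median. Gnmt (0.55 ± 0.14, limma adjusted p = 0.0635) and Ces1g (-1.17 ± 0.34, 0.0955) also came nearest to the threshold between Dex and Veh. Between Veh and Con Gnmt came nearest (0.40 ± 0.14, limma adjusted p = 0.0899). In this list the median difference was -0.47 between Dex and Con, beside -0.20 over all probe sets, and without Dex 1, Dex 2 and Dex 3 the calls of Gnmt, Ces1g and Ugt2b34 held while those of Aox1 and Ugp2 did not (limma adjusted p = 0.103 and 0.257). Ugp2 also lost its call in quantile-normalized values (-0.61, limma adjusted p = 0.0924) and was called in 23 of the 27 fits that left out 1 array (limma adjusted p up to 0.0691, without Dex 1).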

How the data were processed

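Per the labels, RNA of 27 mouse livers was purified with Trizol and RNeasy kits and made into targets by standard Affymetrix steps, 1 liver per array. The deposited values are linear intensities that the authors had scaled per array (2% trimmed means from 100.09 to 100.15); no source used here names the summarising software. Arrays have no read depth, so their number limits the precision.

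The floor for log2 values was the 10th percentile of all positive intensities (2.6). The 66 control probe sets were left out. Group means were fitted with limma 3.58.1 in R 4.3.3 (lmFit and eBayes with trend, two-sided tests, p adjusted by Benjamini-Hochberg across 6784 probe sets, threshold 0.05) to all 27 arrays. A gene with several tested probe sets was represented by the one with the highest mean. Gene symbols came from the array annotation (1 symbol for 10855 probe sets, several for 396, none for 1237). Of these, 10839 matched the RefSeq table by gene number and 0 symbols changed. Correlations within groups used exact permutation tests over all pairings. The fit was tested on simulated data.

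The members and both gene lists were chosen with earlier results of these data known. Named were all probe sets of the members, list genes past the threshold, the other Sult and Papss genes, and the 5 genes with the highest r to each member. Alternatives were quantile normalization, other floors and filters, the beta-actin ratio as a covariate, fits of 2 groups, replicate and number blocks, and leaving out each array.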

Additional observations from a re-analysis of the deposited data

Results flagged for a closer look

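Among 36 sets of 9 mice (12 Sult and Papss probe sets in 3 groups), 5 had a mouse far from the other 8, by a gap to its nearest neighbour above Dixon's 95% critical share of the log2 range. Chance flags about 1 in 20 sets of untied values, a rate that does not hold for these 5 sets, since each holds several mice tied at the floor of 2.6. Sult3a1 in Dex 8 stood at 1105.3, where the next Dex mouse had 22.4. The other 4 lay under the median of their arrays: the second Sult1a1 probe set in Dex 3 (16.4, next 6.2), Sult1c1 in Dex 1 (6.9, next 3.6) and in Veh 2 (5.9, next 3.5), and Sult3a1 in Con 4 (3.6, with the other 8 at the floor, so that any value above it would stand apart). No mouse stood apart in this way for Sult1d1 or for the main probe set of Sult1a1.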

How the results depend on the processing

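The 6 differences of Sult1d1 and Sult1a1 kept their sign in all 211 recomputed values. Many could not move: other floors, blocks, 2-group fits and left-out third-group arrays keep both means. Sult1d1 gave 1.2 to 2 (Dex vs Veh), 1.8 to 2.61 (Dex vs Con) and 0.51 to 1.01 (Veh vs Con). Sult1a1 gave 0.03 to 0.35, 0.84 to 1.16 and 0.58 to 0.92. The Sult1a1 ranges leave out the average of both probe sets (0.17, 0.64 and 0.47), pulled towards 0 by the low second one. Leaving out 1 array gave 1.57 to 2, 2.18 to 2.61 and 0.51 to 0.68 for Sult1d1, and 0.15 to 0.35, 0.84 to 1.08 and 0.58 to 0.84 for Sult1a1. Same-numbered mice are not among the 211 (Dex vs Veh down to 0.37 for Sult1d1 and -0.14 for Sult1a1). Sult1e1 had no probe set and no alternatives.

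Counts of called probe sets moved more, and the cause was not tested. For Dex vs Veh, 18 became 7 without a filter, 1 with the beta-actin covariate, 1 in a fit of 2 groups, 3 with the replicate block, 32 with sets of 3 mouse numbers as a block and 1 without Dex 1, Dex 2 and Dex 3. For Veh vs Con, 262 became 85 with quantile normalization, 116 without a filter, 33 with the beta-actin covariate and 656 in a fit of 2 groups. For Dex vs Con, 1115 became 658 with quantile normalization and 405 without Dex 1, Dex 2 and Dex 3. Leaving out 1 array gave 4 (without Dex 5) to 124 (without Dex 6) for Dex vs Veh, 85 (without Veh 5) to 586 (without Veh 9) for Veh vs Con and 785 to 1488 for Dex vs Con. The median difference of all probe sets was -0.02 with quantile normalization and -0.19 without for Veh vs Con, and -0.04 and -0.20 for Dex vs Con. The share of calls that were higher was 26.7% with it and 16.7% without for Dex vs Veh, 52.9% and 30.9% for Veh vs Con, and 29.3% and 19.8% for Dex vs Con.

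For sulfation genes, Dex vs Con gave 2 with quantile normalization or no filter and 1 without Dex 1, Dex 2 and Dex 3 (2 to 4 leaving out 1 array), and Veh vs Con gave 2 in a fit of 2 groups (0 to 2). For conjugation genes, Veh vs Con gave 1 with quantile normalization and 2 in a fit of 2 groups, Dex vs Veh gave 1 with sets of 3 mouse numbers as a block (0 to 2), and Dex vs Con gave 3 without Dex 1, Dex 2 and Dex 3 (4 to 7). The Veh correlation was 0.594 without its 2 farthest mice and 0.707 with quantile normalization, neither past the threshold.

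Deviations of same-numbered mice from their group means correlated weakly (r from -0.195 to 0.187, over 0.1 in 3 of 9 pairs for Dex vs Veh, 0 for Veh vs Con and 1 for Dex vs Con), so the mice were treated as unpaired because not every pair was over 0.1. Own numbers correlated best in 3, 1 and 2 of 9. Array medians of same-numbered Dex and Veh mice lay 0.8 to 4 apart in 8 of 9 pairs and 13.7 apart for mouse 8 (33.3 and 19.6), so a pairing of some Dex and Veh arrays is not settled. Levels near the floor of 2.6, as for Sult1c1, Sult2a2 and Sult3a1 in most mice, have no order.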
